A study of Arabidopsis thaliana with 12 samples.

Results

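The 7 genes described here encode enzymes of alternative respiration and proteins of the mitochondrial stress response in Arabidopsis thaliana. They were taken by gene identifier from a fixed list: AOX1A (AT3G22370), AOX1D (AT1G32350), NDA1 (AT1G07180), NDA2 (AT2G29990), NDB2 (AT4G05020), OM66 (AT3G50930) and UPOX (AT2G21640). All 7 were found among the 33323 genes of the deposited table, and all 7 had enough counts to be tested.

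RNA was sequenced from whole rosettes without roots, 3 libraries per genotype, each from a separate pool of about 20 plants. The plants spent 18 days on peat and 7 days on soil at 20 °C, with 16 h of light, and the genotypes shared trays. Col-0 is the wild type. The cdk8-1 mutant has a disrupted CDK8 gene, which encodes the kinase of the Mediator complex. The jazD mutant combines mutations in many JAZ genes, whose products repress the transcription factors of jasmonate defense, so that defense genes are active without added hormone. The jazDcdk8-1 plants carry both sets of mutations. The labels name no hormone, wounding or respiratory inhibitor for any group. Each mutant genotype rests on 1 allele or allele set, with no complemented line among the groups.

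Plant mitochondria can pass electrons from ubiquinone straight to oxygen through alternative oxidase, which bypasses complexes III and IV and their proton pumping. Type II NAD(P)H dehydrogenases likewise feed electrons into ubiquinone without pumping protons, with NDA enzymes on the matrix face of the inner membrane and NDB enzymes on the outer face. When mitochondria are disturbed, membrane-bound NAC transcription factors such as NAC017 are released and switch on AOX1A, NDB2, UPOX and OM66 through a promoter element called the mitochondrial dysfunction motif. WRKY proteins, which recognise W-boxes, also act on the AOX1A and OM66 promoters. CDK8 bears on the question directly, because a mutant of the same gene was found in a screen for plants that fail to induce AOX1A when respiration is inhibited. No inhibitor is named for the plants here, so the values are levels in undisturbed rosettes as far as the labels tell.

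The bases just before the annotated start of each gene show which of these elements lie there. The stretches below come from the RefSeq TAIR10.1 genome and read 5′ to 3′ on the strand of the gene, with matches in capitals. OM66 is shown from position -250 to -121, because its match lies there, and the others from -130 to -1, where -1 is the base before the start. The mitochondrial dysfunction motif was searched as CTTGNNNNNCAAG or CTTGNNNNNCACG, the W-box as TTGACC or TTGACT, and the G-box as CACGTG, each on both strands, so that a W-box on the other strand reads GGTCAA. No match overlapped another.
AOX1A: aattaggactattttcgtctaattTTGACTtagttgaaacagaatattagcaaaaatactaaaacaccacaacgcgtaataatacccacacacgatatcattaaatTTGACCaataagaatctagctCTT
AOX1D: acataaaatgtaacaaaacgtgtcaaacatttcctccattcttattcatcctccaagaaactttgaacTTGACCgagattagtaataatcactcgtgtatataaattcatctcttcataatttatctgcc
NDA1: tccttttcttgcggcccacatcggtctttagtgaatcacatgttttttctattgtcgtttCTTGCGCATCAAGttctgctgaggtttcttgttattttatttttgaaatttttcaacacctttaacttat
NDA2: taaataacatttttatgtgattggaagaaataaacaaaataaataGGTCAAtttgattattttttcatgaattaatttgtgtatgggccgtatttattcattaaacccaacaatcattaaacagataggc
NDB2: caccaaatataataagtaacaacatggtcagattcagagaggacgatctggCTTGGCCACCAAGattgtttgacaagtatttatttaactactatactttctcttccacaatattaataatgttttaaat
OM66: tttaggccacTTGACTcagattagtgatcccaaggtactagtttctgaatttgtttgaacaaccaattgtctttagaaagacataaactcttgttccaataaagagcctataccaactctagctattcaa
UPOX: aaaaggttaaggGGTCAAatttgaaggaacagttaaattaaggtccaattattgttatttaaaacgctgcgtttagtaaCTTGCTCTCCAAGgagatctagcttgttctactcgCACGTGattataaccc

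The stretches lie at chr3:7906391-7906520 for AOX1A, chr1:11668691-11668820 for AOX1D, chr1:2203974-2204103 for NDA1, chr2:12796086-12796215 for NDA2, chr4:2572297-2572426 for NDB2, chr3:18929276-18929405 for OM66 and chr2:9254248-9254377 for UPOX. AOX1D and NDA2 are on the minus strand and the other 5 genes on the plus strand. Over the window from 250 bases before to 50 bases after the start, 4 of the 7 genes held a mitochondrial dysfunction motif, against 1.42% (391 of 27443) of the windows of protein-coding genes. AOX1A held a pair of them: the final CTT of its stretch opens CTTGGCGACCACG, which crosses the start (positions -3 to 10), and CTTGCTCTCCAAG follows at positions 25 to 37. That second run is, letter for letter, the motif of UPOX at positions -51 to -39. W-boxes were found in 5 of the 7 genes, against 32.4% of all windows, and the G-box in UPOX alone among the 7, against 7.68%. AOX1D, NDA2 and OM66 held a W-box and no match to the dysfunction motif in this window. NDA1 and NDB2 held the dysfunction motif and no W-box, and the window of NDB2 runs into the neighbouring gene AT4G05018. These matches describe letters in the window and do not show binding. Genes named above as switched on through the dysfunction motif are among the 7, so its share here is not an independent test.

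**Figure D1:**
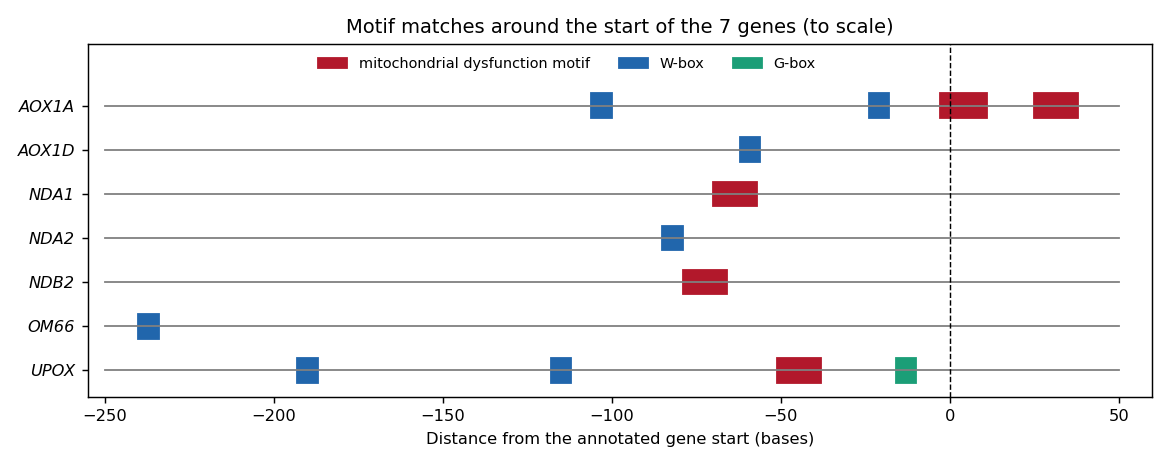
Matches to 3 promoter elements in the 7 genes, drawn to scale by distance from the annotated gene start in bases (dashed line, with upstream to the left). Red bars mark the mitochondrial dysfunction motif (4 genes), blue bars the W-box (5 genes) and the green bar the G-box (UPOX).

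The 12 libraries held 17583467 to 21030374 counts each. CDK8 itself was 7.32-fold lower in cdk8-1 than in Col-0 and 6.53-fold lower in jazDcdk8-1 than in jazD, which fits the labels. Leaf markers summed to 48380 to 58630 CPM (counts scaled to a common library size) in every library, while all 5 root markers together gave 7 to 14 counts per genotype. The summed flower markers stayed between 0.54 and 2.06 CPM per library. Genes of senescing leaves were present at low levels, and the defining marker SAG12 was at or near 0. Library jazD replicate 2 agreed least with its group (mean correlation of log2 CPM 0.9903, against 0.9909 to 0.9921 for the other libraries), and results that rest on it are marked. Since these are whole rosettes, fewer cells of a type and less RNA per cell cannot be told apart.

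Loss of CDK8 moved the 7 genes in both directions. OM66 and AOX1D fell without CDK8 in both JAZ backgrounds, and NDB2 rose in both. In the jazD background NDA2 also fell and UPOX rose, while AOX1A did not pass the test for CDK8 in either. The calls of OM66, of NDA2 and of AOX1D in the jazD background held under every other processing tried. Those of NDB2, of UPOX and of AOX1D in cdk8-1 against Col-0 were lost under some, mostly with a library left out. In jazD against Col-0, NDA2, OM66 and AOX1A rose and NDA1 and NDB2 fell, the OM66 call being lost without jazD replicate 2 and the AOX1A call on TPM. Between the plants without CDK8, jazDcdk8-1 and cdk8-1, AOX1A rose and NDA1 and NDB2 fell, and NDA2 and OM66 were not called. Tests are edgeR quasi-likelihood F-tests fitted to all 12 libraries, with p-values adjusted by Benjamini-Hochberg over the 19059 genes tested and a gene called at an adjusted p below 0.05. In cdk8-1 against Col-0, 3 of the 7 genes were called, 1 higher and 2 lower, where 25.5% of all tested genes were called (11.7% higher, 13.8% lower). In jazDcdk8-1 against jazD the count was 5 of 7, 2 higher and 3 lower, against 35.8% of all genes (16.9% and 19.0%). In jazD against Col-0 it was also 5 of 7, 3 higher and 2 lower, against 42.8% (21.8% and 20.9%). In jazDcdk8-1 against Col-0 it was 4 of 7, 2 in each direction, against 32.4% (16.3% and 16.1%), and in jazDcdk8-1 against cdk8-1 it was 3 of 7, 1 higher and 2 lower, against 24.0% (12.7% and 11.2%). Libraries of the compared groups did not overlap for 5 of the 7 genes in cdk8-1 against Col-0 (37.6% of all genes), 5 in jazDcdk8-1 against jazD (47.9%), 4 in jazD against Col-0 (51.5%), 4 in jazDcdk8-1 against Col-0 (44.8%) and 5 in jazDcdk8-1 against cdk8-1 (38.0%). With 7 genes, these shares lie near or moderately above the background and say little about the group as a whole. Comparisons with the same control share its libraries and are not independent of each other.

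**Figure D2:**
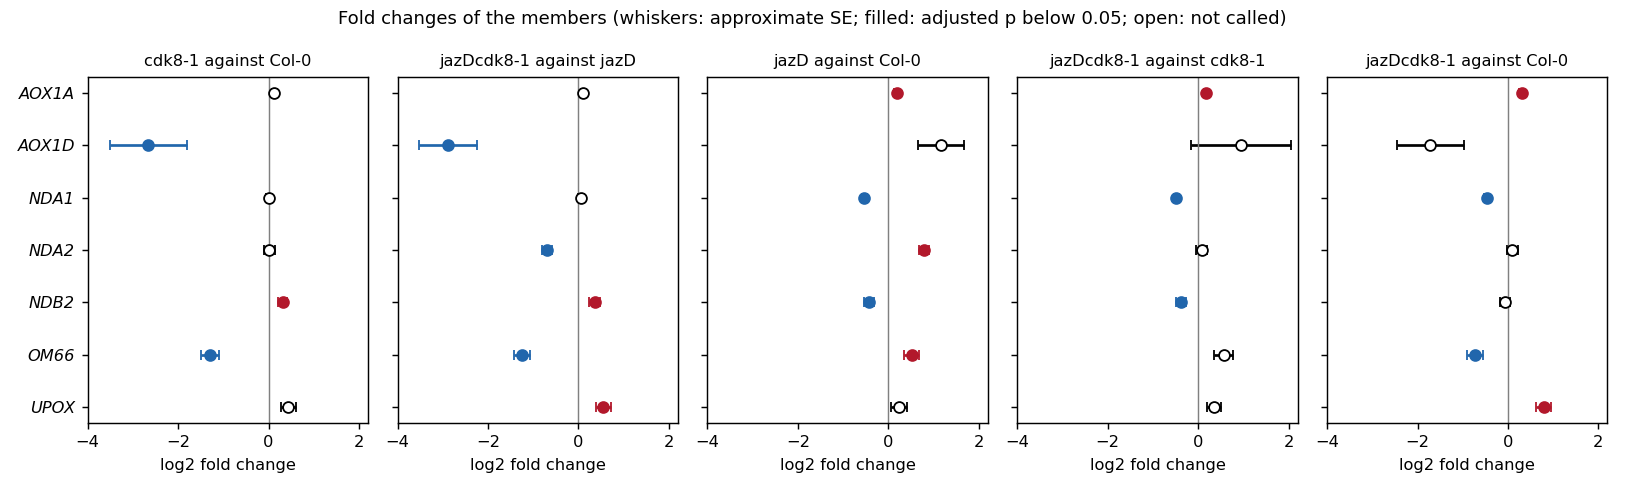
Log2 fold changes of the 7 genes (rows) in 5 comparisons (panels), with approximate standard errors as whiskers. Filled points passed an adjusted p of 0.05 (red higher, blue lower) and open points did not. OM66 and AOX1D lie left of 0 in both comparisons of plants without CDK8 with their CDK8 counterparts, and NDA1 lies left of 0 wherever plants with and without the JAZ mutations are compared.

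AOX1A encodes the main stress-inducible alternative oxidase (4 exons, chr3:7906521-7908746, TAIR10.1). It was among the well-expressed members, with 744 to 1066 counts per library. Col-0 gave 40.9, 37.3 and 40.6 CPM, cdk8-1 44.5, 41.9 and 43.2, jazD 44.7, 45.0 and 45.8, and jazDcdk8-1 47.3, 49.6 and 49.4 (CPM scaled by the trimmed mean of M values, TMM). The 3 double-mutant libraries were the highest of the 12 and the 3 Col-0 libraries were the lowest. Group means were 39.6 ± 1.99 CPM (SD, n = 3) in Col-0, 43.2 ± 1.29 in cdk8-1, 45.2 ± 0.554 in jazD and 48.7 ± 1.27 in jazDcdk8-1.

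Neighbours in that order were close. In cdk8-1 AOX1A was 0.12 ± 0.05 log2 above Col-0 (approximate SE), which missed the threshold (adjusted p = 0.0901). It passed when libraries were scaled to total counts (log2 difference 0.20, adjusted p = 0.00993) and on TPM (counts per transcript length, scaled to a common sum, 0.20 at a pseudocount of 1, adjusted p = 0.0108). Under these settings the median of all genes was itself shifted, by 0.07 with total counts and 0.08 on TPM. In jazDcdk8-1 against jazD the AOX1A difference was 0.11 ± 0.05 (adjusted p = 0.1025), and it passed under the same alternatives (0.18 with total counts, 0.25 on TPM). There the median of all genes was shifted by 0.07 and 0.13. AOX1A rose by 0.19 ± 0.05 log2 in jazD against Col-0 (adjusted p = 0.00608), a call that was lost on TPM (0.11, adjusted p = 0.117). Between the extremes of the order the change was firmer: jazDcdk8-1 was 1.23-fold above Col-0 (log2 0.30 ± 0.05, adjusted p = 0.00012), and this was called under all 21 alternatives. In jazDcdk8-1 against cdk8-1 it rose by 0.18 ± 0.05 (adjusted p = 0.0157), which 6 of 21 alternatives did not call. On TPM the middle of the order was swapped, with 36.9 ± 2.33 in cdk8-1 and 34.4 ± 0.782 in jazD. On log2(TPM + 1) the median of all genes was itself 0.08 in cdk8-1 and -0.06 in jazD against Col-0.

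AOX1D, the alternative oxidase most often linked to senescing or stressed leaves (4 exons, chr1:11666886-11668690), was near the limit of detection. Its counts were 13, 13 and 7 in Col-0, 0, 3 and 2 in cdk8-1, 10, 45 and 16 in jazD, and 2, 0 and 8 in jazDcdk8-1. Each cdk8-1 library was below every Col-0 library, and each jazDcdk8-1 library was below every jazD library. Summed over 3 libraries and scaled for depth, AOX1D was 6.71-fold lower in cdk8-1 than in Col-0 (5 against 33 counts, 95% interval 2.60 to 22.0) and 7.72-fold lower in jazDcdk8-1 than in jazD (10 against 71 counts, 3.96 to 16.8). These intervals cover counting error only. Both differences were called (adjusted p = 0.0270 and 0.00129). The first did not pass once any of Col-0 replicate 1 or 2 or cdk8-1 replicate 1 or 3 was left out (adjusted p = 0.0656 to 0.0971), nor on log2(TPM + 1), and the second held under all 20 alternatives that gave a value. The sizes leaned on single libraries. For jazDcdk8-1 against jazD the fitted log2 difference, -2.89 with all libraries, was -2.13 without jazD replicate 2, -2.30 without jazDcdk8-1 replicate 2 and -4.45 without jazDcdk8-1 replicate 3. For cdk8-1 against Col-0 it was -2.66, and -3.35 without cdk8-1 replicate 2. AOX1D was 2.29-fold above Col-0 in jazD by counts (1.496 to 3.58), which was not called (adjusted p = 0.0696), and 45 of the 71 jazD counts came from jazD replicate 2.

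Compared per transcript length, AOX1A carried nearly the whole alternative oxidase message. Summed TPM of the 5 AOX genes was 32.8 ± 0.707 in Col-0, 38.4 ± 2.29 in cdk8-1, 35.8 ± 1.52 in jazD and 42.6 ± 1.80 in jazDcdk8-1, and AOX1A held 93.7% to 97.8% of it in each library. Differences of these sums between genotypes include the shift of all genes on TPM. AOX1B, the tandem copy that ends 944 bases before AOX1A, and AOX2 had 0 counts in all 12 libraries. AOX1C, an alternative oxidase described as unresponsive to mitochondrial stress, did differ. Its counts were 7, 14 and 11 in Col-0, 33, 32 and 23 in cdk8-1, 6, 9 and 3 in jazD, and 24, 28 and 27 in jazDcdk8-1. It rose without CDK8 in both backgrounds, 2.69-fold against Col-0 (log2 1.43 ± 0.31, adjusted p = 0.0014) and 3.99-fold against jazD (2.00 ± 0.35, adjusted p = 0.00012). AOX1C and AOX1D, at comparable low counts, thus moved in opposite directions without CDK8.

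**Figure D3:**
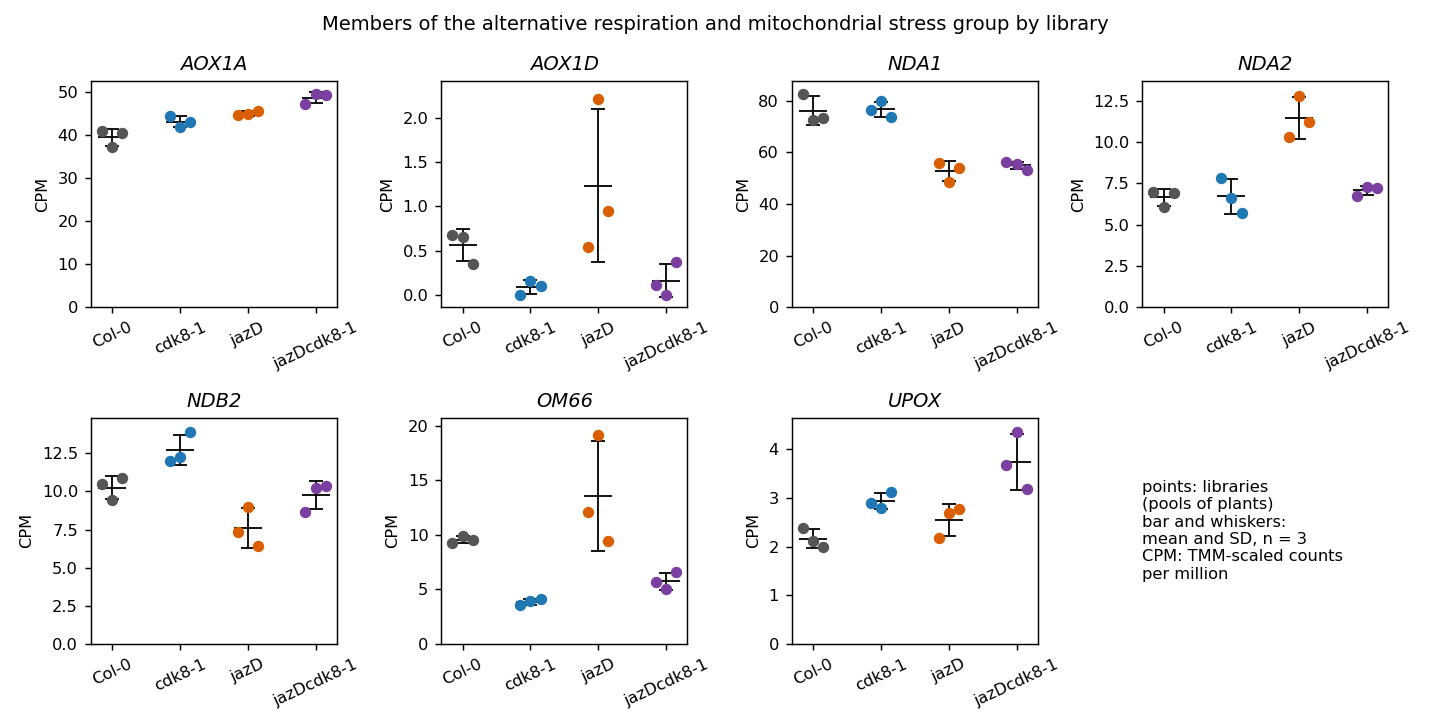
CPM of the 7 genes in each of the 12 libraries, 1 panel per gene with its own scale, grouped by genotype. Points are libraries, and the horizontal bar and whiskers give the mean and SD (n = 3). NDA1 is lower in all 6 libraries with the JAZ mutations, NDA2 is high in jazD alone, and jazD replicate 2 is the highest point for OM66 and AOX1D.

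NDA1, an internal NAD(P)H dehydrogenase whose message is known to respond to light (8 exons, chr1:2204104-2207099), had the highest CPM of the 7 in every genotype. Per transcript length it exceeded AOX1A in Col-0 (49.2 against 31.8 TPM) and cdk8-1 but not in jazD (32.4 against 34.4 TPM) or jazDcdk8-1 (37.2 against 41.1 TPM). Its libraries gave 82.5, 72.4 and 73.4 CPM in Col-0, 76.2, 79.8 and 73.8 in cdk8-1, 55.7, 48.6 and 54.0 in jazD, and 56.1, 55.3 and 53.2 in jazDcdk8-1. The 6 libraries with intact JAZ genes all lay above the 6 libraries with the JAZ mutations. NDA1 fell by 0.53 ± 0.06 log2 in jazD against Col-0 (adjusted p = 2.75e-07) and by 0.48 ± 0.06 in jazDcdk8-1 against cdk8-1 (adjusted p = 2.55e-06), and both calls held under all 21 alternatives. Loss of CDK8 made a difference of 0.01 ± 0.06 with intact JAZ genes (adjusted p = 0.9305) and of 0.06 ± 0.06 in jazD (adjusted p = 0.4913). The second was called on TPM (0.20, adjusted p = 0.00747), where the median of all genes was itself shifted by 0.13.

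NDA2, the other internal enzyme (8 exons, chr2:12793320-12796085), behaved unlike NDA1. Its counts were 134, 121 and 139 in Col-0, 157, 128 and 119 in cdk8-1, 189, 261 and 190 in jazD, and 121, 152 and 156 in jazDcdk8-1. The jazD libraries were the 3 highest, and the other 9 overlapped, with means of 6.66 ± 0.507 CPM in Col-0, 6.72 ± 1.06 in cdk8-1 and 7.08 ± 0.300 in jazDcdk8-1 against 11.5 ± 1.28 in jazD. NDA2 rose 1.73-fold in jazD (log2 0.79 ± 0.11, adjusted p = 9.09e-06) and fell 1.62-fold from jazD to jazDcdk8-1 (-0.70 ± 0.11, adjusted p = 4.69e-05). The effect of CDK8 loss differed between the JAZ backgrounds: the interaction (the change in jazD minus the change with intact JAZ genes) was -0.71 ± 0.17 log2 (adjusted p = 0.00492). NDA2 was the 1 gene of the 7 called in the interaction, where 16.5% of all genes were called (8.16% higher, 8.39% lower), and the call held under all 20 alternatives. For the other 6 genes the interaction lay between -0.23 and 0.11 log2, with adjusted p from 0.757 to 0.949. For AOX1D the interaction ran from -1.79 to 0.52 log2 with a library left out. Its approximate standard error of 1.62 is unreliable at such few counts, so a moderate difference could have been missed for that gene.

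NDB2, an external NAD(P)H dehydrogenase that is often induced together with AOX1A (10 exons, chr4:2572427-2576599), changed in opposite directions with the 2 sets of mutations. It gave 10.5, 9.43 and 10.9 CPM in Col-0, 12.0, 12.3 and 13.9 in cdk8-1, 7.35, 8.99 and 6.40 in jazD, and 8.68, 10.2 and 10.4 in jazDcdk8-1. The cdk8-1 libraries were the 3 highest, and the Col-0 and jazDcdk8-1 libraries overlapped. NDB2 fell by 0.43 ± 0.11 log2 in jazD against Col-0 (adjusted p = 0.0049), under all 21 alternatives. Without CDK8 it rose by 0.31 ± 0.11 over Col-0 (adjusted p = 0.0335) and by 0.36 ± 0.12 in jazDcdk8-1 against jazD (adjusted p = 0.0185). These calls were less secure. The first was lost with DESeq2 (adjusted p = 0.0687) and without Col-0 replicate 1 or 2 or cdk8-1 replicate 3 (up to 0.1582), and the second without jazD replicate 1 or 3 or jazDcdk8-1 replicate 2 or 3 (up to 0.1238). NDB2 fell by 0.38 ± 0.11 in jazDcdk8-1 against cdk8-1 (adjusted p = 0.0118), a call lost without cdk8-1 replicate 3 or jazDcdk8-1 replicate 1. The double mutant and Col-0 differed by -0.07 ± 0.11 (adjusted p = 0.6931).

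Summed TPM of the 7 type II NAD(P)H dehydrogenase genes was 100.6 ± 1.87 in Col-0, 106.4 ± 1.91 in cdk8-1, 81.3 ± 1.02 in jazD and 85.9 ± 0.838 in jazDcdk8-1. Here too the differences between genotypes include the shift of all genes on TPM. NDA1 held 48.9% of the sum in Col-0 and 39.8% in jazD, the largest share of any gene in each genotype. NDC1, a plastid and mitochondrial enzyme, and NDB1, an external one, had 28.03 ± 0.783 and 14.0 ± 1.08 TPM in Col-0, above NDA2 (4.42 ± 0.243) and NDB2 (4.82 ± 0.243). NDC1 fell in jazDcdk8-1 against Col-0 (log2 -0.19 ± 0.05, adjusted p = 0.0057), a call lost on TPM. It also fell in jazDcdk8-1 against cdk8-1 (-0.17 ± 0.05, adjusted p = 0.016), a call lost without cdk8-1 replicate 3 or jazDcdk8-1 replicate 3. NDB1 passed in none of the 6 comparisons. NDB3 had at most 6 counts per genotype and NDB4 at most 8.

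**Figure D4:**
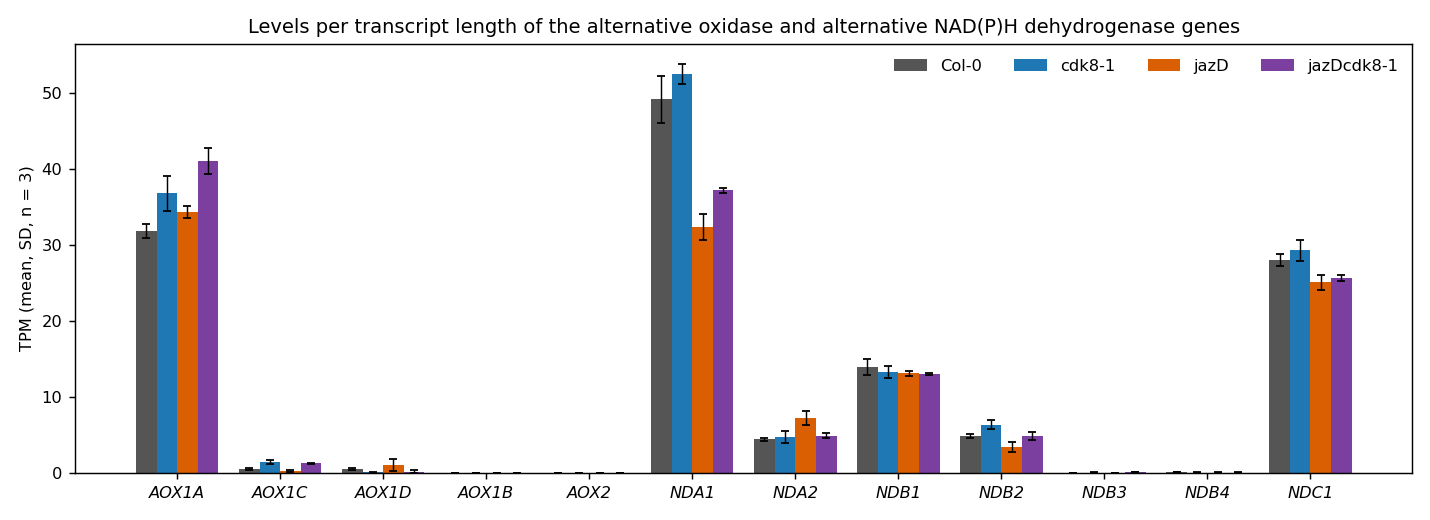
Levels per transcript length (TPM, mean and SD, n = 3) of the 5 alternative oxidase and 7 type II NAD(P)H dehydrogenase genes in the 4 genotypes. AOX1A and NDA1 dominate their families, and the jazD and jazDcdk8-1 bars of NDA1 (32.4 and 37.2 TPM) lie below those of Col-0 and cdk8-1 (49.2 and 52.6 TPM).

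OM66, an AAA-type ATPase of the outer mitochondrial membrane that is a common marker of mitochondrial stress and salicylic acid signalling (1 exon, chr3:18929526-18932181), showed the clearest fall without CDK8. Col-0 gave 9.29, 9.89 and 9.50 CPM, cdk8-1 3.59, 3.93 and 4.13, jazD 12.1, 19.2 and 9.48, and jazDcdk8-1 5.67, 5.02 and 6.58. All 6 libraries without CDK8 lay below all 6 with it. OM66 fell 2.46-fold when CDK8 was lost from Col-0 (log2 -1.297 ± 0.20, adjusted p = 3.93e-05) and 2.38-fold when it was lost from jazD (-1.25 ± 0.18, adjusted p = 9.72e-06). Both calls, and the fall of 0.73 ± 0.18 in jazDcdk8-1 against Col-0 (adjusted p = 0.0043), held under all 21 alternatives. The interaction was 0.05 ± 0.27 log2 (adjusted p = 0.9354), so no difference in the CDK8 effect between the backgrounds was detectable.

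The effect of the JAZ mutations on OM66 was weaker and leaned on 1 library. OM66 rose by 0.52 ± 0.17 log2 in jazD against Col-0 (adjusted p = 0.0147), but jazD replicate 3 lay within the Col-0 range. Without jazD replicate 2 the difference was 0.18 (adjusted p = 0.2548), and on log2(TPM + 1) it was 0.32 (adjusted p = 0.1484). In jazDcdk8-1 against cdk8-1 it was 0.57 ± 0.21, just past the threshold on the other side (adjusted p = 0.0579), and 5 of 21 alternatives called it. WRKY40, a transcription factor of pathogen and mitochondrial stress responses, was called in the same direction as OM66 in the 4 comparisons in which OM66 was called. WRKY40 gave 2.23, 3.81 and 3.598 CPM in Col-0, 0.60, 0.72 and 0.96 in cdk8-1, 5.61, 10.9 and 4.98 in jazD, and 1.28, 0.72 and 1.297 in jazDcdk8-1. The 6 libraries without CDK8 were again the lowest, and jazD replicate 2 was again the highest.

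Leaf senescence markers moved with these genes. The summed CPM of 5 markers, of which SAG12 had almost no counts, ran from 13.2 to 19.1 in Col-0, 4.96 to 7.35 in cdk8-1, 20.1 to 35.5 in jazD and 6.17 to 9.59 in jazDcdk8-1. Of the 4 markers that could be tested, 3 fell in cdk8-1 against Col-0, among them NAP by 1.46 ± 0.28 log2 (adjusted p = 0.000454), and 4 fell in jazDcdk8-1 against jazD. Over all tested genes, 13.8% were called lower in the first comparison and 19.0% in the second. The part of the markers in the OM66 and AOX1D results was not tested. The highest sum, 35.5, was again that of jazD replicate 2.

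**Figure D5:**
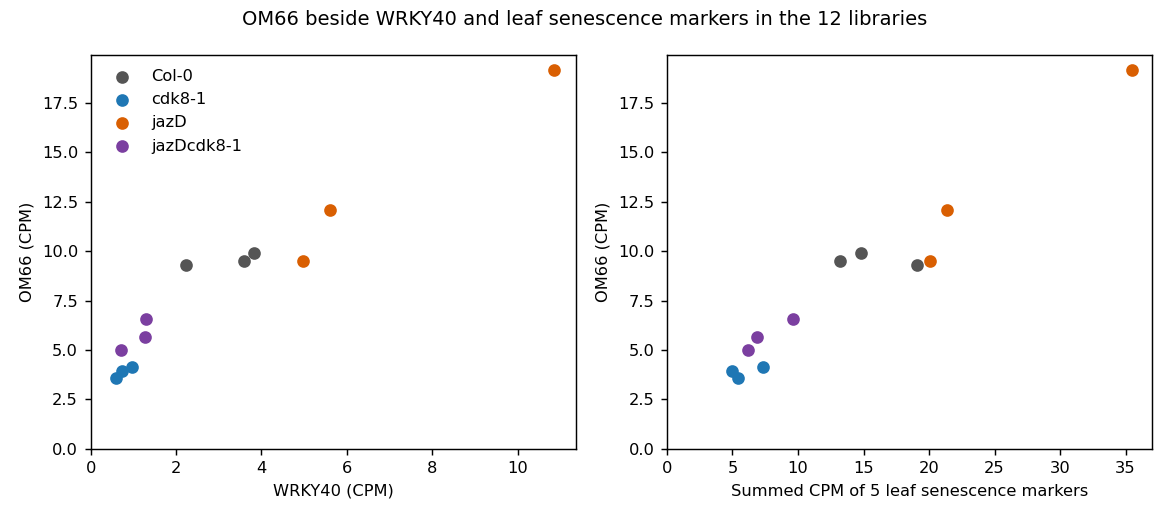
OM66 CPM (vertical axes) against WRKY40 CPM (left) and the summed CPM of 5 leaf senescence markers (right) in the 12 libraries, coloured by genotype. The libraries of cdk8-1 and jazDcdk8-1 sit at the lower left of both panels, and jazD replicate 2 (19.2 CPM of OM66) sits alone at the upper right.

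UPOX, a small mitochondrial protein named for its upregulation by oxidative stress (3 exons, chr2:9254378-9255743), had few counts. Its counts were 46, 42 and 40 in Col-0, 58, 54 and 65 in cdk8-1, 40, 55 and 47 in jazD, and 66, 91 and 69 in jazDcdk8-1. Every jazDcdk8-1 library was above every jazD, cdk8-1 and Col-0 library once scaled for depth, with means of 3.74 ± 0.582 CPM in jazDcdk8-1 and 2.17 ± 0.2001 in Col-0. UPOX rose 1.73-fold in jazDcdk8-1 against Col-0 (log2 0.79 ± 0.17, adjusted p = 0.00103), under all 21 alternatives. It rose by 0.55 ± 0.17 in jazDcdk8-1 against jazD (adjusted p = 0.0131), a call lost without jazD replicate 1 or jazDcdk8-1 replicate 2 (up to 0.0891). In cdk8-1 against Col-0 the difference of 0.44 ± 0.17 missed the threshold (adjusted p = 0.0704) and passed with total counts (0.51, adjusted p = 0.03), where the median of all genes was shifted by 0.07. For jazD against Col-0 it was 0.24 ± 0.18 (adjusted p = 0.3068). The short transcript gives UPOX a higher rank per length than per count: 7.46 TPM in Col-0, above NDA2, NDB2 and OM66.

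The order of the genotype means differed among genes that hold the same promoter match. Among the 4 genes with the dysfunction motif, mean CPM of AOX1A and UPOX, which also hold W-boxes, was highest in jazDcdk8-1 and lowest in Col-0, while that of NDA1 and NDB2 was highest in cdk8-1 and lowest in jazD. Not every step of these orders was called. For AOX1A, loss of CDK8 was not called with intact JAZ genes (adjusted p = 0.0901) or in jazD (0.1025). UPOX was not called in cdk8-1 or jazD against Col-0 (adjusted p = 0.0704 and 0.3068) or in jazDcdk8-1 against cdk8-1 (0.1278). For NDA1, too, loss of CDK8 was not called with intact JAZ genes (0.01 ± 0.06, adjusted p = 0.9305) or in jazD (0.06 ± 0.06, adjusted p = 0.4913). NDA1 libraries overlapped in both comparisons, so only its fall with the JAZ mutations was resolved. AOX1D, NDA2 and OM66 held a W-box and no dysfunction motif from 250 bases before to 50 bases after the start. Bases outside this window were not searched, and OM66 is named above as switched on through the motif. Among these 3 genes, mean CPM of OM66 and AOX1D was highest in jazD and lowest in cdk8-1. NDA2 was highest in jazD too, but Col-0 and cdk8-1 overlapped (log2 difference 0.01 ± 0.12, adjusted p = 0.955).

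Of 12 listed regulators of these genes, 10 could be tested. For this list and those below, the shares called over all tested genes were 25.5% in cdk8-1 and 42.8% in jazD against Col-0. They were 35.8% in jazDcdk8-1 against jazD, 32.4% against Col-0, 24.0% against cdk8-1 and 16.5% in the interaction. Differences of the lists from these shares were not tested. In cdk8-1 against Col-0, 1 rose and 3 fell: NAC013, which activates AOX1A and UPOX through the dysfunction motif, rose by 0.36 ± 0.10 log2 (adjusted p = 0.0143), and WRKY40 (-2.07 ± 0.36), WRKY15 (-0.59 ± 0.09) and MYB29 (-0.47 ± 0.07) fell. WRKY15 and WRKY40 have been described as repressors at the AOX1A promoter, and MYB29, better known for aliphatic glucosinolate synthesis, as a negative regulator of AOX1A. In jazD against Col-0, 5 rose and 1 fell, led by WRKY40 (1.16 ± 0.25), WRKY15 (1.03 ± 0.08) and NAC053 (0.90 ± 0.12), and MYB29 was the gene that fell (-0.53 ± 0.07). NAC017 rose by 0.21 ± 0.05 (adjusted p = 0.0018). Its call was lost on TPM, where 3 regulators were called higher, namely WRKY40, WRKY15 and NAC053. In jazDcdk8-1 against jazD none rose and 3 fell, namely WRKY40 (-2.72 ± 0.30), WRKY15 (-1.06 ± 0.08) and NAC053 (-0.70 ± 0.12), though on TPM 3 others were called higher. In jazDcdk8-1 against Col-0, 1 rose and 2 fell. The riser was NAC017 (0.14 ± 0.05, adjusted p = 0.0352), which 10 of 21 alternatives did not call. In jazDcdk8-1 against cdk8-1 only WRKY15 was called (0.57 ± 0.09). The genes encoding the sensors RCD1 and KIN10 passed in none of the 6 comparisons.

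WRKY15 did not sit at the same levels as WRKY40 relative to the wild type. It had 19.4 ± 0.860 CPM in Col-0, 12.9 ± 0.878 in cdk8-1, 39.6 ± 3.95 in jazD and 19.1 ± 2.26 in jazDcdk8-1, so that Col-0 and the double mutant overlapped. WRKY40 had 3.21 ± 0.858, 0.761 ± 0.184, 7.15 ± 3.23 and 1.10 ± 0.330 CPM in the same order, and the double mutant lay below Col-0 in all 3 libraries (log2 -1.56 ± 0.33, adjusted p = 0.001).

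Uncoupling proteins and dicarboxylate carriers are mitochondrial carriers, some of which can lower the coupling of respiration. Of 6 such genes 5 were tested, and DIC1, DIC2 and UCP1 were called in at least 1 comparison. DIC1, an inner-membrane dicarboxylate carrier, had 24.97 ± 2.19 CPM in Col-0, 20.7 ± 1.42 in cdk8-1, 40.3 ± 1.96 in jazD and 26.4 ± 0.534 in jazDcdk8-1. It rose by 0.69 ± 0.07 log2 in jazD (adjusted p = 3.35e-08) and fell by 0.61 ± 0.07 from jazD to jazDcdk8-1 (adjusted p = 2.82e-07). DIC2 fell without CDK8 in both backgrounds, with log2 changes of -1.02 ± 0.25 against Col-0 and -1.501 ± 0.25 against jazD, although Col-0 replicate 1 (4.51 CPM) lay within the cdk8-1 range. UCP1 rose by 0.55 ± 0.05 in jazD and fell by 0.28 ± 0.05 from jazD to jazDcdk8-1, the second call being lost on TPM. In counts, 1 gene rose and 2 fell in cdk8-1 (25.5% of all tested genes were called), 2 rose in jazD (42.8%) and 3 fell from jazD to jazDcdk8-1 (35.8%). In jazDcdk8-1 against Col-0, 1 rose and 1 fell (32.4%), and 1 rose in jazDcdk8-1 against cdk8-1 (24.0%). In cdk8-1 against Col-0 the UCP1 call was lost under 6 of 21 alternatives, that of DIC1 under 3 and that of DIC2 under 1. The interaction was called, as lower, for UCP1 and DIC1.

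Of 11 other genes used as markers of mitochondrial stress, 6 could be tested, and 5 had too few counts, among them the mitochondrial small heat shock proteins HSP23.5 and HSP23.6. In cdk8-1 only SOT12, a sulfotransferase, was called, lower by 0.20 ± 0.07 log2, and 9 of 21 alternatives did not call it. In jazD 3 rose: ABCB4, an auxin transporter (0.97 ± 0.11), SOT12 (0.44 ± 0.06) and AT12CYS-1, a small twin-cysteine protein of mitochondria (0.28 ± 0.06). From jazD to jazDcdk8-1, 4 fell and none rose: the glutathione transferase GSTU24, at under 1 CPM (-1.33 ± 0.44), the cytochrome P450 CYP81D8 (-0.74 ± 0.21, lost without jazD replicate 2), AT12CYS-1 (-0.37 ± 0.06) and SOT12 (-0.22 ± 0.06, lost with total counts and on TPM). Against Col-0 the double mutant had 2 of them higher, ABCB4 (0.91 ± 0.11) and SOT12 (0.22 ± 0.06), and against cdk8-1 the same pair was higher. AT12CYS-1 was the 1 gene of the list called in the interaction (-0.39 ± 0.09, adjusted p = 0.00524).

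Genes of the phosphorylating cytochrome pathway moved little. Of 18 nuclear genes for complexes I to V and cytochrome c, 5 rose and none fell in cdk8-1 against Col-0. There 25.5% of all tested genes were called (11.7% higher, 13.8% lower). The median change was 0.10 log2 over the list and 0.00 over all genes. The number called higher was 16 with total counts and 14 on log2(TPM + 1). SDH2-2, an iron-sulfur subunit of complex II, was the largest, at 0.37 ± 0.07 (adjusted p = 0.000199). In jazD 5 rose, where 42.8% of all tested genes were called, and SDH2-2 was among them (0.47 ± 0.07). From jazD to jazDcdk8-1, 5 fell and none rose, but on log2(TPM + 1) 9 were called higher and 1 lower, so the direction of this list rests on the scaling there. The complex IV subunit COX6A, with 144 ± 4.94 CPM in jazD and 116 ± 11.8 in jazDcdk8-1, was called lower under all 21 alternatives. In jazDcdk8-1 against Col-0, 3 rose and none fell (32.4% of all tested genes were called), and against cdk8-1, 1 rose and 4 fell (24.0%). Among the 3, the call of COX6B-1 was lost under 11 of 21 alternatives. In the interaction 6 were called, all lower.

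The list of alternative electron donors holds genes that feed ubiquinone through the electron-transfer flavoprotein, with proline dehydrogenase. Of its 10 genes none was called in cdk8-1 against Col-0. In jazD 7 rose and 3 were not called, where 42.8% of all tested genes were called, and on TPM 2 of the 10 were called higher. PRODH1, which oxidises proline in mitochondria, had 34.9 ± 7.14 CPM in Col-0, 34.6 ± 4.79 in cdk8-1, 60.8 ± 5.21 in jazD and 33.8 ± 2.09 in jazDcdk8-1. This is the pattern of NDA2, high in jazD alone, and its interaction was -0.83 ± 0.15 log2 (adjusted p = 0.000646). From jazD to jazDcdk8-1, 2 genes of the list rose and 2 fell, while 4 rose in jazDcdk8-1 against Col-0 and 4 against cdk8-1. The last 4 were all lost with total counts and on TPM. Among 5 mitochondrial antioxidant genes, 1 rose in cdk8-1, 3 rose and 1 fell in jazD, and 2 fell from jazD to jazDcdk8-1, whereas on TPM none was called lower and 2 were called higher. The glutathione peroxidase GPX6 rose in cdk8-1 (0.26 ± 0.06), in jazD (0.63 ± 0.06) and in jazDcdk8-1 against Col-0 (0.55 ± 0.06). The double mutant had 2 of the list higher and 1 lower both against Col-0 and against cdk8-1, and 2 were called lower in the interaction.

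The genes most like each member were found by the Pearson correlation of log2 CPM over the 12 libraries, among 14454 genes with at least 5 CPM in a genotype. These correlations mainly follow the 4 genotype means and are descriptions. Nearest to OM66 were XBAT34 (r = 0.9802), CRK14, a cysteine-rich receptor-like kinase (0.9718), and WRKY40 (0.9683). Nearest to AOX1D were CYP71A13, an enzyme of camalexin synthesis (0.9508), the pathogenesis-related gene PR1 (0.9453) and SAG13 (0.9441). PR1 had 20.5 ± 10.6 CPM in Col-0 and 66.3 ± 34.2 in jazD. Nearest to NDA1 were FBA2, a plastid aldolase (0.9828), AT3G13040 (0.9792) and the clock gene CCA1 (0.9788). CCA1 had 44.5 ± 3.89 CPM in Col-0 and 14.9 ± 1.24 in jazD. AOX1A was closest to the glutathione transferase GSTT1 (0.9667), NDA2 to the protease STE24 (0.9619), NDB2 to CPR5 (0.9514) and UPOX to APL2, a subunit of starch synthesis (0.9442).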

How the data were processed

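The authors made the deposited tables with RSEM 1.2.25, per the submitters' processing notes: 1 of expected counts, unscaled, and 1 of TPM. The notes name the TAIR10 build, while aligner, annotation release and strand setting are not given in the sources used here. All 84 deposited expected count values of the 7 genes were whole, and none overlaps another annotated gene. Coordinates and sequences are from RefSeq TAIR10.1.

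Expected counts were rounded and fitted with edgeR 4.0.16 (R 4.3.3): TMM, filterByExpr, 1 quasi-likelihood model of 12 libraries, two-sided tests. Standard errors are the log2 fold change over the square root of F, and are unreliable at few counts. The tests set each difference against the spread between pools of plants of the same genotype, estimated jointly over all genotypes. Alternatives were RLE or total-count scaling, no filter, 1 CPM in 3 libraries, DESeq2 1.42.0, limma 3.58.1 on log2(TPM + 1) and log2(TPM + 0.1), fits of the compared groups, a replicate block, and each library left out. The model was tested on simulated data. Members and lists were chosen with earlier results of these data known. Named genes are the 7, CDK8, per list and comparison up to 3 called genes of at least 1 CPM that changed most, and 3 most alike genes. AOX1B, AOX2, NDB1, NDB3, NDB4, HSP23.5, HSP23.6, GSTU24, NAC013, RCD1, KIN10 and SAG12 fall outside this rule and were chosen after their values were seen.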

Additional observations from a re-analysis of the deposited data

Results flagged for a closer look

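The effect of CDK8 loss on NDA2, an internal NAD(P)H dehydrogenase, differed between the JAZ backgrounds by the test of the difference itself: the interaction was -0.71 log2 (-0.7085 before rounding, adjusted p = 0.00492, edgeR), and from -0.81 to -0.54 under the 20 alternatives, called in each. With intact JAZ genes NDA2 changed by 0.01 ± 0.12 log2 without CDK8, and in jazD it fell by 0.70 ± 0.11. All 3 jazD libraries were above all 3 jazDcdk8-1 libraries, while Col-0 and cdk8-1 overlapped.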

How the results depend on the processing

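Of 42 log2 fold changes (7 genes, 6 contrasts), 866 values were obtained under the alternatives: 790 kept direction and side of the threshold, 28 lost the call, 21 gained it and 27 changed sign, none of these among called changes. AOX1D gave no value with the filter of 1 CPM in 3 libraries nor, in some contrasts, in fits of the compared groups alone. Of 21 calls, 13 held throughout. In cdk8-1 against Col-0 the number of genes called, 3, became 5 with total counts and with limma on log2(TPM + 0.1), and ran from 1 (without Col-0 replicate 1 or 2 or cdk8-1 replicate 3) to 3 with a library left out. In jazD against Col-0 it fell from 5 to 3 on log2(TPM + 1) and log2(TPM + 0.1). In jazDcdk8-1 against jazD it ran from 3 (without jazD replicate 1 or jazDcdk8-1 replicate 2) to 5 with a library left out, and was 6 with total counts and 7 on log2(TPM + 1) and log2(TPM + 0.1), where AOX1A and NDA1 were also called higher. The cause was not tested. Scaling moved the balance of all calls: 45.9% of those in cdk8-1 against Col-0 were higher with TMM, 66.8% with total counts and 69.4% on log2(TPM + 1), and in jazDcdk8-1 against jazD 47.1%, 63.5% and 75.7%. In jazD against Col-0 they were 51.1%, 44.5% and 37.9%, in jazDcdk8-1 against Col-0 50.4%, 60.1% and 66.8%, in jazDcdk8-1 against cdk8-1 53.2%, 41.7% and 48.2%, and in the interaction 49.3%, 48.2% and 59.7%. In jazDcdk8-1 against jazD the median of all genes was 0.13 on log2(TPM + 1) and 0.15 on log2(TPM + 0.1). Same-numbered libraries did not deviate together (18 pairs, r from -0.06 to 0.05), so the numbers do not pair them. With the replicate block, 3, 5, 5, 4, 3 and 1 of the 7 genes were called, as without it, and 4678 against 4853 of all genes in cdk8-1 against Col-0. In jazDcdk8-1 against cdk8-1 it left 2 of 4 calls among alternative electron donors. Depth limits AOX1D (0 to 45 counts) and UPOX (40 to 91 counts).

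Sign changes, all of uncalled values, came mostly with a library left out, with these ranges on the log2 scale. In cdk8-1 against Col-0, NDA1 ran from -0.0259 to 0.0737 and NDA2 from -0.11 to 0.12. In jazDcdk8-1 against jazD, NDA1 ran from -0.00941 to 0.0918. In jazDcdk8-1 against Col-0, NDB2 ran from -0.12 to 0.00133. In jazDcdk8-1 against cdk8-1, AOX1D ran from -0.63 to 1.63 and NDA2 from -0.0294 to 0.203. In the interaction, AOX1A ran from -0.0490 to 0.0287, AOX1D from -1.79 to 0.52, NDA1 from -0.0243 to 0.08465, NDB2 from -0.0671 to 0.184, OM66 from -0.16 to 0.38 and UPOX from -0.0196 to 0.2145. On log2(TPM + 1) and log2(TPM + 0.1) the interaction of AOX1A was 0.0456 and 0.0462.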

Other observations

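Genes holding the promoter elements were also counted across the genome. Of 176 tested genes that held the dysfunction motif in the promoter window, 13.1% (23 genes) were called higher and 22 genes lower in cdk8-1 against Col-0, and over all 18495 tested genes with a window the shares were 11.8% and 13.8%. In jazD against Col-0 the shares were 21.6% and 17.0% for the motif, and 22.1% and 21.0% over all. Of 5978 tested genes with a W-box, 25.2% were called higher and 18.8% lower in jazD against Col-0, and in jazDcdk8-1 against jazD 15.8% were higher and 21.2% lower, where all genes gave 17.0% and 19.1%. Of 1641 tested genes with a G-box, 26% were called higher and 21.8% lower in jazD against Col-0. In jazDcdk8-1 against jazD the G-box shares were 19.5% and 21%. These are counts of called genes, and differences between the shares were not tested.

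Among the 7 genes, log2 CPM of AOX1D and OM66 were the most alike over the 12 libraries (Pearson r = 0.9074, and 0.6727 for deviations from the genotype means), and AOX1A and UPOX had r = 0.7865, with 0.2508 for the deviations. The libraries share genotypes, and jazD replicate 2 is the highest for both AOX1D and OM66, so these values describe the libraries.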
